A study of Mus musculus with 2 samples.

Results

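Among natural killer (NK) cells sorted from mouse tumors, 287 of 6622 kept cells carried at least 2 unique molecular identifiers (UMIs) of the T cell receptor genes Cd3d and Cd3e combined, and these are called CD3-transcript cells here. A UMI counts 1 captured transcript. The members were chosen by their raw Cd3d and Cd3e UMIs after keeping barcodes in which 500 or more genes were seen and mitochondrial genes gave no more than 10% of UMIs. The choice left 94 of 3067 kept cells in the KO library and 193 of 3555 in the WT library, and the other 2973 KO and 3362 WT cells served for comparison. The levels of Cd3d and Cd3e in the members are therefore a description of the choice and not a finding.

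The KO library came from mice whose Hif1a gene, which encodes the oxygen-sensitive subunit of the transcription factor HIF-1, was knocked out in NK cells (NK-Hif1a-/- in the labels); whether the CD3-transcript cells carried the deletion was not tested. The WT library came from wild-type mice. Both groups of mice had received RMA-S cells, a T lymphoma line that displays little MHC class I, under the skin 2 weeks before they were killed, and tumor-infiltrating cells without surface CD3ε and with NK1.1 were sorted. There was 1 library of 10x Chromium 3′ counts per genotype, so every difference between KO and WT compares 2 libraries, no test across samples was possible and no p-value is given. The labels give neither the Cre driver, the age, sex or number of mice, nor whether tumors were pooled.

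The KO library had 3110 barcodes with 13407906 UMIs and the WT library 3574 barcodes with 19553440 UMIs. The gene and mitochondrial limits left out 43 KO and 19 WT barcodes, and 1 of these, a WT barcode, met the Cd3d and Cd3e choice. Both libraries shared 19 kept barcodes, and none was a member in both. Hif1a itself was measured at 66.3 counts per 1000000 UMIs (CPM) in KO members and 57.6 CPM in WT members, and at 60.3 CPM in KO and 58.2 CPM in WT other kept cells. The labels do not give the deleted exons, and a 3′ tag outside them does not check a deletion.

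CD3 gamma, delta and epsilon chains, encoded by Cd3g, Cd3d and Cd3e, join the CD3 zeta chain Cd247 and the antigen-binding T cell receptor chains on the surface of T cells, and the complex reaches the surface only when assembled. NK cells also use CD3 zeta, together with the adaptor Fc receptor gamma (Fcer1g), to signal from receptors such as NKp46 (Ncr1). DAP12 (Tyrobp) is an adaptor of other NK receptors. Transcripts of CD3 chains without a surface complex are known from NK cells and innate lymphoid cells, and a sort against surface CD3ε removes only cells that display it. The T cell receptor constant and variable genes were not analysed here.

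Cd3d, Cd3e and Cd3g lie close together on mouse chromosome 9 (GRCm38). Cd3g spans chr9:44969572-44980431 on the minus strand, Cd3d spans chr9:44981786-44987339 on the plus strand, and Cd3e spans chr9:44998740-45009627 on the minus strand. Cd3g and Cd3d are thus transcribed away from each other. The 250 bases before each RefSeq start are printed because the choice used Cd3d and Cd3e and Cd3g had the highest ratio among the other genes. In the members Cd3e was detected in only 44.7% of KO and 45.6% of WT cells. The windows read 5′ to 3′ along the gene's strand, with every GGAA or TTCC, the core bound by ETS family factors on either strand, in capitals.
Cd3d promoter, chr9:44981536-44981785, plus strand: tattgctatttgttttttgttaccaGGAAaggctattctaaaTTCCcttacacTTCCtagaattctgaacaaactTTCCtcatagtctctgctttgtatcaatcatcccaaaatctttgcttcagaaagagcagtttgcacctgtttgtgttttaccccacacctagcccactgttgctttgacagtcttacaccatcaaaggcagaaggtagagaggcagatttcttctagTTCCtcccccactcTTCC
Cd3g promoter, chr9:44980432-44980681, minus strand: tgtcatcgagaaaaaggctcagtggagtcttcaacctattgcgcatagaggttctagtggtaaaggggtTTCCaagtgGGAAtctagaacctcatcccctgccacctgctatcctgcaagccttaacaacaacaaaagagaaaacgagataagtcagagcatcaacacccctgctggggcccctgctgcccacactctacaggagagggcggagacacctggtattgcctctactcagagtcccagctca
Cd3e promoter, chr9:45009612-45009861, minus strand: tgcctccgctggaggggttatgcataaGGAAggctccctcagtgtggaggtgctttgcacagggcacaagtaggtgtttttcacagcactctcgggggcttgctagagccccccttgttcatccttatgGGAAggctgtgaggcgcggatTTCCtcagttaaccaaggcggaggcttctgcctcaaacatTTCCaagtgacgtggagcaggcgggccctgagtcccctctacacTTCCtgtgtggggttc
The script found 6 ETS cores before Cd3d, 2 before Cd3g and 5 before Cd3e. A core of these 4 letters was also present in 93.4% of 32851 RefSeq promoter windows of 250 bases, so its presence does not set these genes apart. The RUNX letters TGTGGT and the TATA box letters TATAAA, each searched on both strands, had 0 matches in the 3 windows, against 14.0% and 12.4% of all windows.

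By library, CD3-transcript cells made up 3.06% of kept KO cells (95% exact Clopper-Pearson interval 2.48% to 3.74%) and 5.43% of kept WT cells (4.71% to 6.23%). These intervals cover counting error only. Members were deeper than the other cells, with a median of 5000 UMIs in KO members and 5353 in WT members, against 3759 in KO and 4401 in WT other kept cells. When every cell was thinned to 2500 UMIs before the choice, 61 of 2649 KO cells (2.30%, 1.77% to 2.95%) and 125 of 3463 WT cells (3.61%, 3.01% to 4.29%) qualified, and 418 KO and 92 WT cells were too shallow. The share was lower in the KO library in both counts, and the part of genotype, tumor, sort and library in this difference cannot be told apart.

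The limit of 2 UMIs cut through a continuous range. Just inside it, 15 KO and 43 WT cells had exactly 2 UMIs. Just outside it, 138 KO and 278 WT cells had exactly 1, and 2835 KO and 3084 WT cells had 0. The highest member held 17 UMIs in the KO library and 43 in the WT library. Cd3e made up 14.0% of the Cd3d plus Cd3e UMIs of KO members and 15.7% of those of WT members, against 5.07% in KO and 3.60% in WT cells with a single UMI.

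Cd3g, the CD3 chain that the choice did not use, went with Cd3d and Cd3e. It was measured at 501 CPM in KO members and 528 CPM in WT members, against 13.6 CPM in KO and 37.4 CPM in WT other kept cells. It was detected in 75.5% of KO and 79.3% of WT members, against 3.46% of KO and 9.40% of WT other kept cells. At an equal 2500 UMIs per cell the shares were 59.1% of KO and 67.5% of WT members, against 2.25% of KO and 5.53% of WT other kept cells, so depth did not remove the difference. CD3 zeta behaved otherwise. Cd247 stood at 127 CPM in KO and 131 CPM in WT members, against 143 CPM in KO and 139 CPM in WT other kept cells, in a chain that NK cells share.

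Other T lineage genes were present in part. Il7r, the interleukin-7 receptor of naive and memory T cells and of innate lymphoid cells, was measured at 164 CPM in KO and 97.2 CPM in WT members, against 22.0 CPM in KO and 17.2 CPM in WT other kept cells. Ikzf2, which encodes the transcription factor Helios of regulatory and innate-like lymphocytes, was at 401 CPM in KO and 253 CPM in WT members, against 83.8 CPM in KO and 54.8 CPM in WT other kept cells. Bcl11b, a transcription factor of T lineage commitment, was at 46.0 CPM in KO and 39.6 CPM in WT members, against 2.76 CPM in KO and 2.43 CPM in WT other kept cells. All 3 genes were therefore higher in members of both libraries, but Bcl11b was detected in only 23.4% of KO and 13.5% of WT members. The 11 cells described further on held 1 of the 25 KO and 25 of the 55 WT member UMIs of Bcl11b, and without them it was at 48.9 CPM in KO and 23.9 CPM in WT members. Ltb, which encodes lymphotoxin beta, was at 359 CPM in KO and 386 CPM in WT members, against 136 CPM in KO and 150 CPM in WT other kept cells. The costimulatory receptor Cd28 differed less, with 195 CPM in KO and 163 CPM in WT members against 117 CPM in KO and 83.2 CPM in WT other kept cells. Lck, the kinase that acts on CD3 chains and is also used by NK cells, was at 295 CPM in KO and 385 CPM in WT members, against 296 CPM in KO and 293 CPM in WT other kept cells.

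T cell coreceptors and factors of particular T cell types were at or near 0 in the members. Cd4 and Cd8b1 had 0 UMIs in members of both libraries, which allows a share of up to 3.19% of KO and 1.55% of WT members with a UMI, and Cd8a had 1 UMI in KO and 0 in WT members. Foxp3, the regulatory T cell factor, and Sox13, a factor of gamma delta T cells, also had 0 UMIs in both. Themis, a T cell development gene, was detected in 0 KO and 3 WT (1.55%) members. Zbtb16, the factor of NKT cells, was detected in 2 KO (2.13%) and 7 WT (3.63%) members. Among cells with 0 UMIs of Cd3d and Cd3e, Themis was found in 0.388% of KO and 0.324% of WT cells. Zbtb16 was found in 3.03% of KO and 3.08% of WT cells of that kind, near its share in members. The T cell surface receptors Cd5 and Cd6 were found in a minority of members. Cd5 was detected in 6.38% of KO and 3.11% of WT members, against 0.101% of KO and 0.119% of WT other kept cells. Cd6 was detected in 16.0% of KO and 5.18% of WT members, against 0.740% of KO and 0.297% of WT other kept cells. Beyond the genes of the choice, the label "T-like" rested on Cd3g, Bcl11b, Il7r and Ikzf2 and did not extend to Cd247 or to the coreceptors, so the cells are named here by their CD3 transcripts.

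The same cells carried NK transcripts, at a lower level than the other kept cells. Tyrobp was measured at 1204 CPM in KO and 1563 CPM in WT members, against 2325 CPM in KO and 2576 CPM in WT other kept cells. Fcer1g was at 1479 CPM in KO and 1519 CPM in WT members, against 2571 CPM in KO and 2423 CPM in WT other kept cells. After thinning to 2500 UMIs, Tyrobp was still detected in 76.1% of KO and 82.7% of WT members, against 98.8% of KO and 99.1% of WT other kept cells. Klrb1c, which encodes the NK1.1 antigen of the sort, was at 392 CPM in KO and 406 CPM in WT members, against 806 CPM in KO and 747 CPM in WT other kept cells. Ncr1 was at 201 CPM in KO and 241 CPM in WT members, against 474 CPM in KO and 442 CPM in WT other kept cells. Eomes, a transcription factor of mature NK cells, was at 151 CPM in KO and 121 CPM in WT members, against 233 CPM in KO and 181 CPM in WT other kept cells. None of these was at 0, and Fcer1g was seen in 88.6% of KO and 94.2% of WT members at 2500 UMIs.

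Joint detection was read with a pair of gene panels that do not hold Cd3d or Cd3e. A cell had T support with at least 2 of the 5 analysed genes Cd3g, Bcl11b, Cd5, Cd6 and Cd28, and NK support with at least 2 of 8 genes that include Tyrobp, Fcer1g, Ncr1 and Klrb1c. T support was found in 51 of 94 KO members (54.3%, 43.7% to 64.6%) and 95 of 193 WT members (49.2%, 42.0% to 56.5%), against 2.12% of KO and 3.69% of WT other kept cells. NK support was found in 92 of 94 KO members and all 193 WT members, and in 2972 of 2973 KO and all 3362 WT other kept cells. It was also found in 10 of the 11 cells low in NK transcripts that are described further on, so the limit of 2 NK genes did not separate cells. Every member with T support passed it as well. At 2500 UMIs per cell, T support remained in 35.2% of KO and 28.8% of WT members, against 0.859% of KO and 1.44% of WT other kept cells.

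The balance of T and NK transcripts changed with the number of Cd3d and Cd3e UMIs. Across KO members with 2, with 3 to 5 and with 6 or more UMIs, T support was found in 33.3%, 41.5% and 76.3% of cells. Across the same classes of WT members it was found in 25.6%, 55.6% and 56.3%. Tyrobp was at 1333, 1438 and 976 CPM in the 3 classes of KO members and at 2394, 1445 and 1215 CPM in those of WT members. Gzma, the granule protease granzyme A, was at 3353, 7567 and 3999 CPM in the KO classes and at 12330, 2819 and 3740 CPM in the WT classes. The WT cells with exactly 2 UMIs were thus close to the other WT kept cells in Tyrobp (2576 CPM) and Gzma (12478 CPM), whereas the 15 KO cells with exactly 2 were not. All 6 WT cells of the 11-cell group described further on fell in the class of 6 or more UMIs. They held 136523 of the 695410 UMIs of that class but only 51 of its 845 Tyrobp UMIs, and so lowered its Tyrobp level. The 5 KO cells of that group had 3 to 15 Cd3d plus Cd3e UMIs. The classes were not recomputed without these cells.

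**Figure D1:**
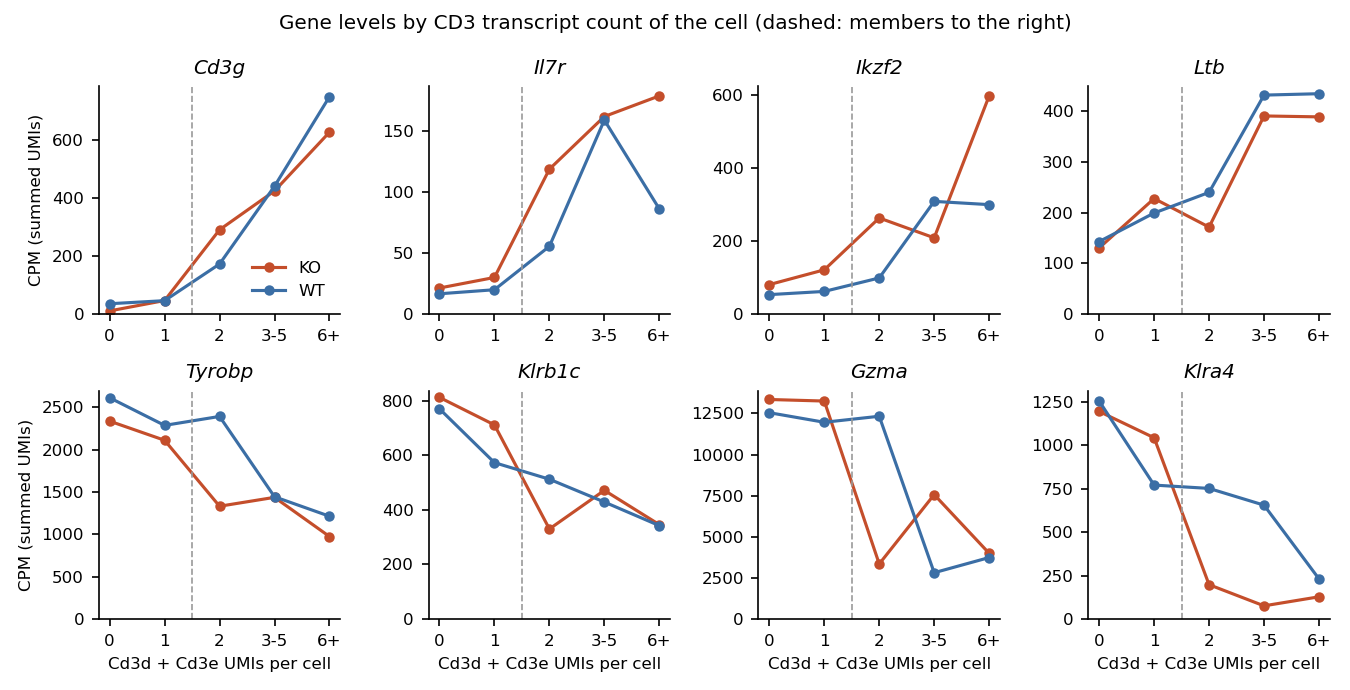
Level of 8 genes in CPM (vertical axes, starting at 0) in cells grouped by their Cd3d plus Cd3e UMIs (horizontal axes), for the KO and WT libraries; cells right of the dashed line are members. Each point is 1 sum over cells with no replicate; Cd3g reached 626 CPM in KO and 748 CPM in WT cells with 6 or more UMIs, while Tyrobp and Klrb1c were lower there than in cells with 0.

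Members also differed among themselves by the T genes they carried. Leaving out 11 cells described further on, 66 KO and 126 WT members had a UMI of Il7r, Ikzf2 or Bcl11b, and 23 KO and 61 WT members had none. In the cells with such a UMI, Tyrobp was at 862 CPM in KO and 1260 CPM in WT, and Gzma at 2855 CPM in KO and 3018 CPM in WT. In the cells without one, Tyrobp was at 2226 CPM in KO and 2320 CPM in WT, and Gzma at 11773 CPM in KO and 10288 CPM in WT, near the levels of the other kept cells. Cd3g was at 551 CPM in KO and 618 CPM in WT cells with such a UMI, and at 415 CPM in KO and 375 CPM in WT cells without one. The cells without one were the deeper ones, with medians of 5580 UMIs in KO and 6657 in WT against 4830.5 in KO and 4919.5 in WT cells with such a UMI. This split was chosen after earlier results of these data were known and is a description.

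Cell by cell, Tyrobp and Fcer1g together had a median of 20.3 UMIs per 10000 in KO members and 25.8 in WT members, against 48.6 in KO and 51.3 in WT other kept cells. In the KO library 63 of the members (67.0%) lay below the 10th percentile of the other kept cells, and in the WT library 111 (57.5%) did. The distributions overlapped, since the 90th percentile of members was 50.7 in KO and 56.8 in WT.

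**Figure D2:**
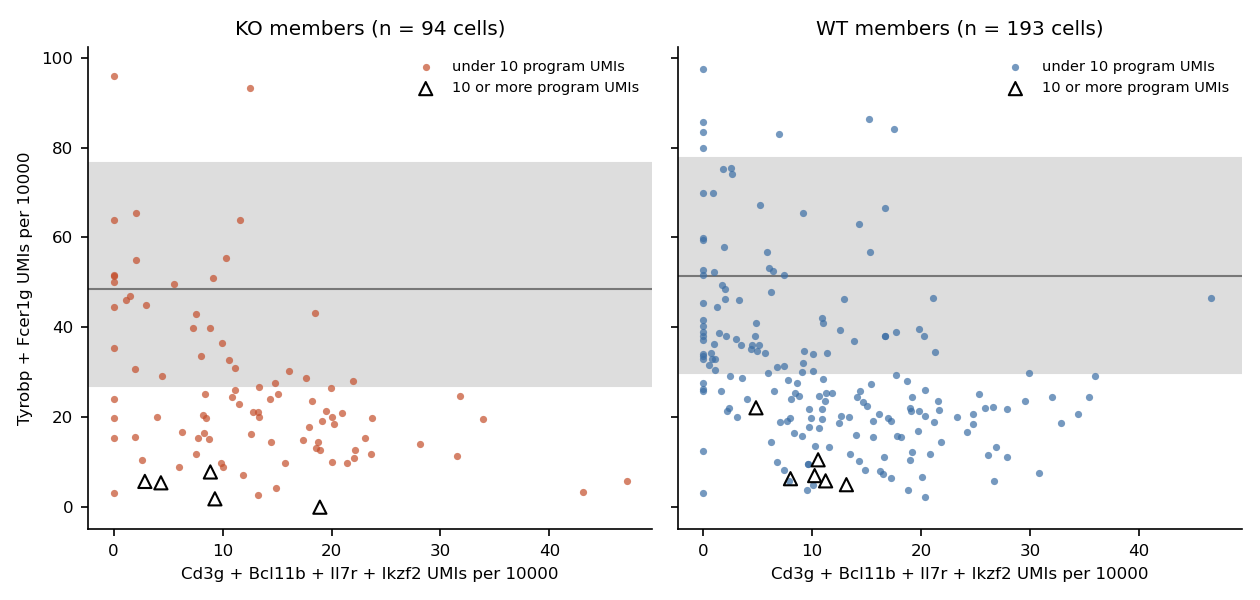
Each point is 1 member cell, with UMIs per 10000 of Cd3g, Bcl11b, Il7r and Ikzf2 (horizontal) against those of Tyrobp and Fcer1g (vertical), KO left and WT right; the grey band spans the 10th to 90th percentile of the other kept cells and the line their median. Most members lie under the band, the others lie inside or above it over a range of T gene levels, and the 11 triangles, cells with at least 10 UMIs of 6 further genes, lie low on the vertical axis.

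Across all genes, 34 of 4522 measured genes (0.752%) were at least 2-fold higher in members than in the other kept cells of their own library in both libraries, and 26 (0.575%) were at least 2-fold lower. Ratios are log2 of CPM plus a pseudocount of 10 CPM, for genes with at least 50 UMIs observed in or expected for the members, and they understate the change of low genes. Cd3g led the higher genes, with log2 ratios of 4.43 in KO and 3.51 in WT. Il7r (2.44 in KO, 1.98 in WT), Ikzf2 (2.13 in KO, 2.02 in WT) and Bcl11b (2.13 in KO, 2.0 in WT) followed among genes of lymphocytes. Beyond these, the checkpoint receptor Pdcd1 had log2 ratios of 2.06 in KO and 1.47 in WT, and Cd160, a receptor of NK and T cells, 1.14 in KO and 1.10 in WT. The T cell adaptor Lat had log2 ratios of 1.18 in KO and 1.23 in WT, though 45.1% of its KO and 58.3% of its WT member UMIs came from the 11 cells described below.

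Of the NK receptor list, 2 of 24 measured genes were 2-fold higher and 5 were 2-fold lower in members of both libraries, and its median log2 ratio was -0.82 in KO and -0.67 in WT, against -0.07 in KO and -0.04 in WT for all genes. The lower receptors included the Ly49 family members Klra4, Klra8 and Klra9 and the NKR-P1 family member Klrb1b. Klra4 and Klra8 were not lower in members alone, as the comparison with innate lymphoid cells further on shows. Klra9 was at 160 CPM in KO and 169 CPM in WT members, against 501 CPM in KO and 543 CPM in WT other kept cells. Ly49 genes are near-identical in places, so reads may have been split among them. Klra6, another member of that family, went the other way, with 97.6 CPM in KO and 91.4 CPM in WT members against 20.9 CPM in KO and 34.9 CPM in WT other kept cells.

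Several genes of NK maturation and of killing were lower in members, though not in members alone, as the comparison with innate lymphoid cells further on shows. Of 8 NK transcription factors, 2 were 2-fold lower, namely Irf8 (525 CPM in KO and 628 CPM in WT members, against 1824 CPM in KO and 1493 CPM in WT other kept cells) and Zeb2, which drives terminal NK maturation (66.3 CPM in KO and 43.9 CPM in WT members, against 164 CPM in KO and 170 CPM in WT other kept cells). The integrin Itgam (CD11b), which marks mature NK cells, was at 14.7 CPM in KO and 25.9 CPM in WT members, against 119 CPM in KO and 110 CPM in WT other kept cells. Of 13 cytotoxic granule genes 0 were 2-fold higher in both libraries and 2 were 2-fold lower: Gzma, at 5289 CPM in KO and 5619 CPM in WT members against 13343 CPM in KO and 12478 CPM in WT other kept cells, and the pore former Prf1, at 75.5 CPM in KO and 114 CPM in WT members against 200 CPM in KO and 289 CPM in WT other kept cells. The chemokines Ccl3 and Ccl4 were 2-fold lower as well, and Ltb was 2-fold higher, out of 6 cytokine and chemokine genes. The granzymes Gzmc, Gzmd, Gzme, Gzmf and Gzmg went the other way in the WT library, with log2 ratios of 0.77, 2.01, 1.38, 1.90 and 1.99 in WT against -0.32, -2.26, -1.53, -2.68 and -2.09 in KO, and 3 WT cells held at least 87.2% of the WT member UMIs of each. The protease Cma1 had log2 ratios of -2.03 in KO and -1.86 in WT.

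**Figure D3:**
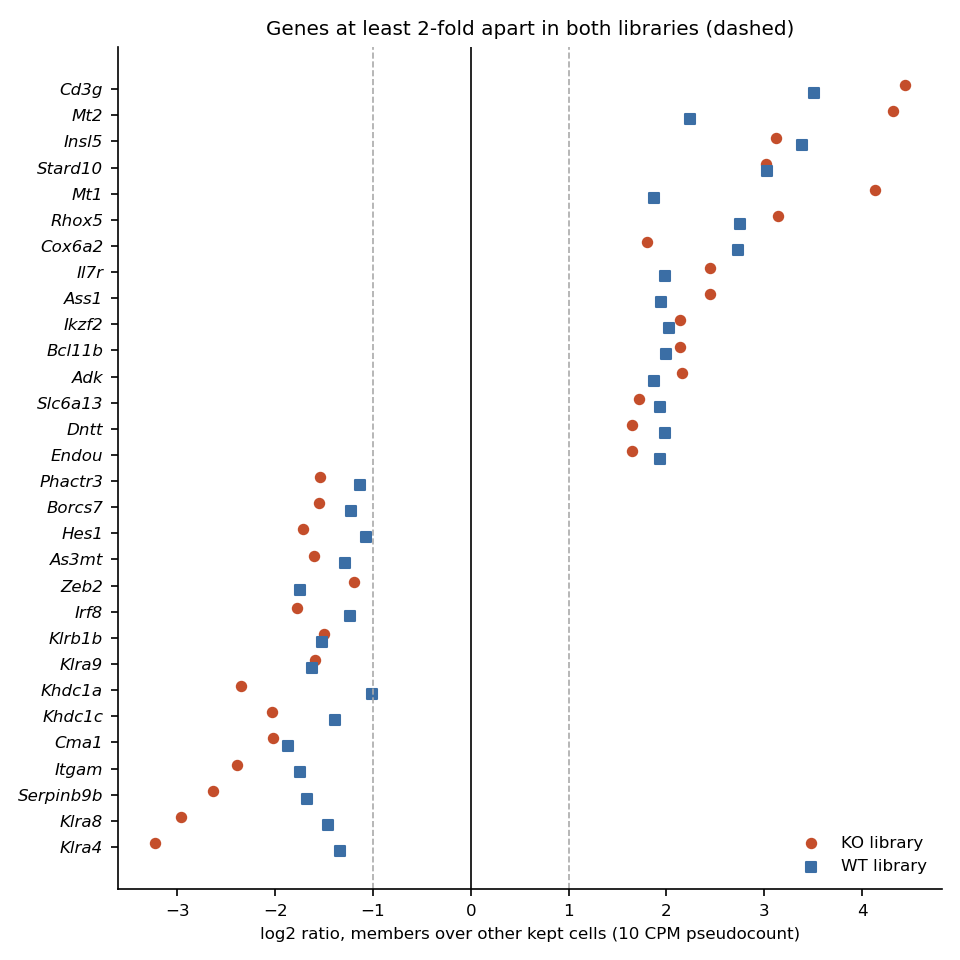
Log2 ratio of members over other kept cells, computed within the KO library (circles) and within the WT library (squares), for the 15 highest and 15 lowest genes among those at least 2-fold apart in both; dashed lines mark 2-fold. Cd3g, Il7r, Ikzf2 and Bcl11b stand on the higher side with Stard10, Insl5, Rhox5, Mt1 and Mt2, and Klra4, Klra8 and Itgam on the lower side; for Klra4 and Klra8 the KO points lie farther out than the WT points.

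Several of the highest genes rested on 11 cells. They were found through 6 genes: the lipid transfer protein gene Stard10, the relaxin family gene Insl5, the homeobox gene Rhox5, Endou, the transporter gene Slc6a13, and Dntt, which encodes terminal transferase, the enzyme that adds bases during receptor gene rearrangement in immature lymphocytes. At least 10 UMIs of the 6 genes together were found in 5 KO members, with 16 to 87, and in 6 WT members, with 19 to 216. The next highest member had 3 among KO and 4 among WT members, and the highest of the 6335 other kept cells had 6. The gap between these cells and all others was thus wide, and the 11 cells held 96.0% of the KO and 95.1% of the WT member UMIs of the 6 genes. This limit was set after the values were seen.

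These 11 cells carried T lineage transcripts and few NK transcripts. Lat was at 615 CPM in KO and 696 CPM in WT cells of this kind, against 79.4 CPM in the other KO and 54.3 CPM in the other WT members. Thy1, a surface protein of T cells, was at 922 CPM in KO and 754 CPM in WT, and Tcf7, a T cell transcription factor shared with early NK cells, at 461 CPM in KO and 410 CPM in WT. Cd3g was at 442 CPM in KO and 615 CPM in WT. Tyrobp was at 327 CPM in KO and 374 CPM in WT, against 1297 CPM in the other KO and 1693 CPM in the other WT members. Gzma was at 1383 CPM in KO and 2249 CPM in WT, against 5703 CPM in the other KO and 5987 CPM in the other WT members. Ncr1 had 0 CPM in the 5 KO cells and 14.7 CPM in the 6 WT cells. B2m, the light chain of MHC class I, was at 2267 CPM in KO and 4051 CPM in WT, against 5524 CPM in the other KO and 5441 CPM in the other WT members.

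The 11 cells varied in depth, with 2113 to 19147 UMIs in KO and 3795 to 40972 in WT, and medians of 6980 UMIs in KO and 22988 in WT, against 4978 in the other KO and 5255 in the other WT members. At least 3 genes of the S and G2M phases were detected in 4 of the 5 KO and 5 of the 6 WT cells. The share was 37.1% in the other KO and 47.6% in the other WT members. The KO cell and the WT cell that fell short were the shallowest of their groups, at 2113 and 3795 UMIs. The part of depth in this count was not tested. The 11 cells held 96.0% of the KO and 82.2% of the WT member UMIs of the metallothionein Mt1. They also held 100% of the KO and 86.6% of the WT member UMIs of Cox6a2. The origin of these cells, which came from tumors of a T lymphoma line, was not tested. Without them, 21 of 4170 measured genes (0.504%) were 2-fold higher in members of both libraries in place of 34, with 17 in both sets, and 22 (0.528%) were lower in place of 26, with 22 in both sets. Cd3g, Il7r, Ikzf2, Bcl11b, Klra6, Pdcd1, Cd160 and Ltb stayed among the higher genes, and Lat, Stard10, Insl5, Rhox5, Mt1 and Mt2 did not. Stard10, Insl5 and Rhox5 were used to find the 11 cells, so their loss was fixed by that choice.

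**Figure D4:**
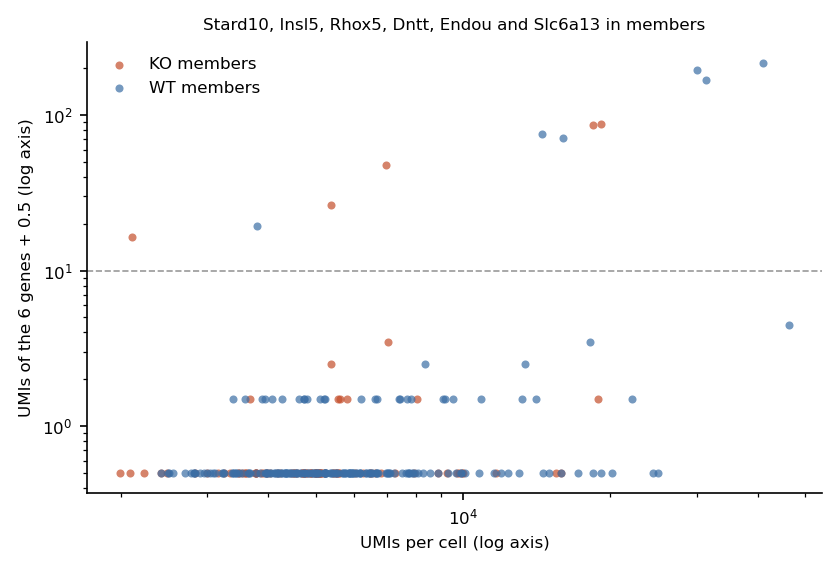
UMIs of Stard10, Insl5, Rhox5, Dntt, Endou and Slc6a13 together plus 0.5 (vertical, log axis) against all UMIs of the cell (horizontal, log axis) for the 94 KO and 193 WT members, 1 point per cell; the dashed line marks 10. The 5 KO and 6 WT cells above the line, with 16 to 87 and 19 to 216 UMIs, are separated from all other members.

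Markers of other cell types were read as list sums. Csf1r, Adgre1, C1qa, C1qb and C1qc of macrophages were at 0 in members of both libraries. Macrophage and dendritic genes summed to 90.2 CPM in KO and 163 CPM in WT members, against 347 CPM in KO and 294 CPM in WT other kept cells, and had a UMI in 26.6% of KO and 32.6% of WT members, against 45.9% of KO and 52.9% of WT other kept cells. Granulocyte and mast cell genes summed to 35.0 CPM in KO and 38.1 CPM in WT members, against 22.3 CPM in KO and 16.7 CPM in WT other kept cells. They had a UMI in 4 KO (4.26%) and 11 WT (5.70%) members, against 1.78% of KO and 2.26% of WT other kept cells. These sums rested on few cells. The top 2 KO members held 9 and 7 of 19 UMIs, and the top WT member 21 of 53. Among KO other kept cells 1 cell held 223 of 283 UMIs. B cell genes had 0 UMIs in KO and 6 in WT members, and Col1a1, Col1a2, Col3a1, Sparc and Cdh5 of stroma and vessels had 0 in both. Erythroid genes, nearly all hemoglobin, had 160 UMIs in KO and 2619 in WT members, of which 1 WT cell held 2459, and had a UMI in 75.5% of KO and 57.0% of WT members, against 67.3% of KO and 46.3% of WT other kept cells. The part of such RNA in the results was not tested.

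Innate lymphoid cells were compared through 87 KO and 96 WT cells outside the members with at least 2 UMIs of Tmem176a and Tmem176b, genes of innate lymphoid cells. Cd3g was at 501 CPM in KO and 528 CPM in WT members, against 7.03 CPM in KO and 53.1 CPM in WT Tmem176 cells. Il7r was at 164 CPM in KO and 97.2 CPM in WT members, and at 174 CPM in KO and 182 CPM in WT Tmem176 cells. Tyrobp was at 1204 CPM in KO and 1563 CPM in WT members, and at 1535 CPM in KO and 1533 CPM in WT Tmem176 cells. Ncr1 was at 201 CPM in KO and 241 CPM in WT members, against 517 CPM in KO and 663 CPM in WT Tmem176 cells. Ikzf2 was at 401 CPM in KO and 253 CPM in WT members, and at 227 CPM in KO and 219 CPM in WT Tmem176 cells, and it was detected in 55.3% of KO and 57.0% of WT members and in 55.2% of KO and 57.3% of WT Tmem176 cells. Ltb was at 359 CPM in KO and 386 CPM in WT members, against 559 CPM in KO and 874 CPM in WT Tmem176 cells. Cd28 was at 195 CPM in KO and 163 CPM in WT members, and at 156 CPM in KO and 153 CPM in WT Tmem176 cells. Pdcd1 was at 51.6 CPM in KO and 31.0 CPM in WT members, and at 15.8 CPM in KO and 41.8 CPM in WT Tmem176 cells. The Pdcd1 UMIs of Tmem176 cells lay in 2 KO and 4 WT cells. Higher Il7r, Ikzf2, Ltb and Cd28 and lower Tyrobp than in all other kept cells together were thus also found in Tmem176 cells without the CD3 choice. Their levels of Cd3g and Ncr1 stood apart from those of members. Lower Gzma, Irf8, Itgam, Prf1 and Zeb2 than in all other kept cells together were found in Tmem176 cells as well. There Gzma was at 4358 CPM in KO and 3631 CPM in WT, and Irf8 at 765 and 677 CPM. Itgam was at 28.1 CPM in KO and 38.6 CPM in WT, Prf1 at 73.8 and 126 CPM, and Zeb2 at 28.1 and 75.6 CPM. Klra4 and Klra8 were also lower in Tmem176 cells than in all other kept cells together. Klra4 was at 109 CPM in KO and 212 CPM in WT Tmem176 cells, and Klra8 at 105 and 156 CPM. Klra6, which was higher in members, was at 1.76 CPM in KO and 3.22 CPM in WT Tmem176 cells. T support was found in 2.30% of KO and 5.21% of WT Tmem176 cells.

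Between the libraries, 62 of 4229 measured genes (1.47%) were at least 2-fold higher in KO than in WT members and 41 (0.969%) were at least 2-fold lower. At 1.5-fold, the limit used for gene lists, 268 genes (6.34%) were higher and 202 (4.78%) lower in KO members. In the other kept cells 160 genes (3.78%) were higher and 67 (1.58%) lower at that limit. Fewer members than other cells were summed, so counting error widened the ratios in members. Of the 62 higher genes 33 were also 2-fold higher in KO among the other kept cells, and of the 41 lower genes 17 were also 2-fold lower there. The 2 comparisons use different cells of the same 2 libraries.

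The level of Cd3g was close in KO and WT members, with a log2 ratio of KO over WT of -0.08 and a 95% counting interval of -0.28 to 0.13 before the pseudocount. Il7r had 89 UMIs in KO and 135 in WT members and a log2 ratio of 0.70 (interval 0.35 to 1.15), and Ikzf2 had 218 UMIs in KO and 352 in WT members and a log2 ratio of 0.64 (0.41 to 0.91). In the other kept cells the log2 ratios were 0.24 for Il7r and 0.53 for Ikzf2. These intervals count UMIs only and leave out differences between cells and between mice.

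Immediate early genes and NF-kB genes were higher in KO members, much as in the other KO cells. Of 17 measured immediate early genes, which are switched on within minutes of a stimulus or of handling, 11 were at least 1.5-fold higher and 3 lower in KO members, with a median log2 ratio of 0.76, and 11 were higher and 2 lower among the other kept cells, with a median of 0.88. Of 20 NF-kB pathway genes, 12 were 1.5-fold higher and 0 lower in members, with a median of 0.68, and 12 were higher and 0 lower among other kept cells, with a median of 0.74. The median of all genes was -0.01 in members and 0.01 in other kept cells. Nr4a1, an orphan nuclear receptor induced by receptor signaling, was at 508 CPM in KO and 112 CPM in WT members, a log2 ratio of 2.08 (interval 1.89 to 2.47), and had a log2 ratio of 2.16 in other kept cells. Csrnp1 had log2 ratios of 2.27 in members and 2.09 in other kept cells, and Gadd45b, a stress-induced gene, 1.97 in members and 2.02 in other kept cells. Nfkbiz and Nfkbid, which encode nuclear regulators of NF-kB, each had 1.99 in members, with 1.99 and 2.08 in other kept cells. Tnfaip3, the NF-kB feedback inhibitor A20, had 1.42 in members and 1.34 in other kept cells. Against the other kept cells of their library, the immediate early list had a median log2 ratio of -0.43 in KO and -0.38 in WT members, and Nr4a1 stood at 1066 CPM in KO and 230 CPM in WT other kept cells.

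The next genes by the size of the ratio included Fosl2, an AP-1 subunit, with 479 CPM in KO and 140 CPM in WT members, Zc3h12a, an RNase that limits inflammation, with 116 CPM in KO and 32.4 CPM in WT members, and Kdm6b, a histone H3 lysine demethylase, with 304 CPM in KO and 103 CPM in WT members. Klhdc2, Arhgap31 and Dusp10 had log2 ratios of 1.59, 1.56 and 1.5 in members and 1.05, 0.59 and 0.80 in other kept cells. Whether the ratio differs between members and other cells was not tested for any gene.

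Glycolysis genes, many of which are known HIF-1 targets, had a median below that of all genes in KO members. Of 15 measured glycolysis genes 0 were 1.5-fold higher and 2 lower in KO members, with a median log2 ratio of -0.31, and 0 were higher and 5 lower among other kept cells, with a median of -0.43. Pgk1, phosphoglycerate kinase, was at 90.2 CPM in KO and 204 CPM in WT members, a log2 ratio of -1.09, and had -0.93 in other kept cells. Gapdh was at 906 CPM in KO and 1131 CPM in WT members, a log2 ratio of -0.32, and had -0.87 in other kept cells. Of 9 other HIF targets 1 was higher and 1 lower in KO members. Vegfa was at 58.9 CPM in KO and 29.5 CPM in WT members, against 303 CPM in KO and 63.9 CPM in WT other kept cells.

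Some cell cycle and heat shock genes were lower in KO members. Of 13 measured S and G2M genes 0 were 1.5-fold higher and 4 lower in KO members, with a median of -0.17, and 0 were higher and 8 lower among other kept cells, with a median of -0.68. Cells with 3 or more such genes made up 39.4% of KO and 48.7% of WT members, against 30.0% of KO and 45.4% of WT other kept cells. Of 11 heat shock genes 1 was 1.5-fold higher and 3 were lower in KO members, with a median of -0.10 in members and -0.35 in other kept cells. Hspa1a, an inducible heat shock protein, was at 361 CPM in KO and 1102 CPM in WT members, a log2 ratio of -1.58, and had -1.32 in other kept cells. Of 7 TGF-beta response genes 3 were higher and 1 lower in KO members, with a median of 0.54 in both sets of cells. The lower one, Id3, an inhibitor of E protein transcription factors, had 7 UMIs in KO and 55 in WT members and a log2 ratio of -1.12 (interval -3.00 to -0.48).

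Klra4 and Klra8, a pair of Ly49 receptor genes, had the lowest ratios among the ranked genes in members and ratios near 0 in the other kept cells. Lower ratios were found for genes gathered in a few cells, such as Gzmd at -5.99, Ifitm1 at -3.09 and Gzmc at -2.90, and for hemoglobin genes such as Hba-a1 at -3.07, which were left out of the ranking. Klra4 was at 118 CPM in KO and 467 CPM in WT members, a log2 ratio of -1.90 (interval -2.38 to -1.61), against 1186 CPM in KO and 1198 CPM in WT other kept cells, a log2 ratio of -0.01. Klra8 was at 95.8 CPM in KO and 313 CPM in WT members, a log2 ratio of -1.61 (interval -2.15 to -1.29), against 815 CPM in KO and 880 CPM in WT other kept cells, a log2 ratio of -0.11. At 2500 UMIs per cell, Klra4 was detected in 18.2% of KO and 38.2% of WT members, and Klra8 in 17.0% of KO and 33.0% of WT members. In the Tmem176 cells outside the members, Klra4 was at 109 CPM in KO and 212 CPM in WT. Klra8 was at 105 CPM in KO and 156 CPM in WT there, so lower KO levels were not confined to members.

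The 2 genes also moved with the CD3 UMIs of the cells. Klra4 was at 198, 76.2 and 128 CPM in KO members with 2, with 3 to 5 and with 6 or more UMIs. In the same classes of WT members it was at 752, 656 and 232 CPM. Cells with exactly 2 UMIs were 15 of 94 KO and 43 of 193 WT members. Among members with T support, the log2 ratio of Klra4 was -1.06 and that of Klra8 -1.71. With 3 UMIs required, the ratios were -1.74 for Klra4 and -1.45 for Klra8, and with 1 UMI of each of Cd3d and Cd3e they were -1.25 and -0.67. When the 138 KO and 278 WT cells with 1 UMI, which outnumber the members, were added, the ratio of Klra4 became 0.02 and that of Klra8 -0.19. The part of the mix of cells in these ratios was not tested.

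**Figure D5:**
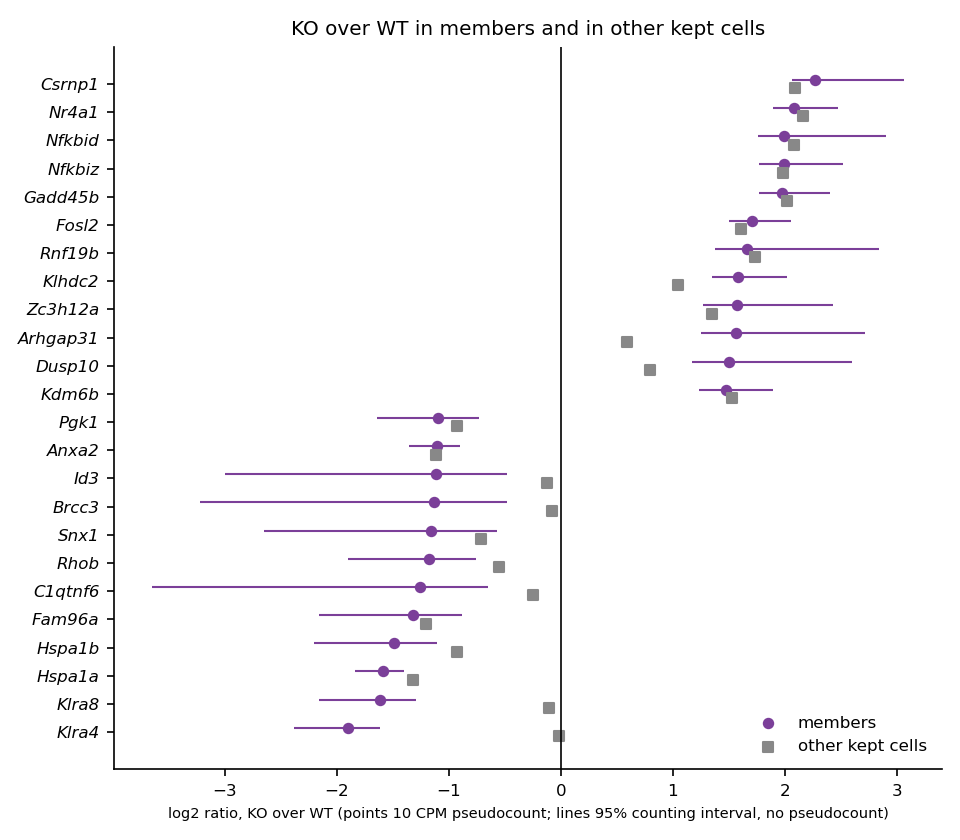
Log2 ratio of KO over WT for the 12 highest and 12 lowest ranked genes in members (circles, with lines for the 95% counting interval, computed without the pseudocount) and the ratio of the same genes in the other kept cells (squares). Csrnp1, Nr4a1, Nfkbid and Nfkbiz lie near 2 in both, and Klra8 and Klra4 lie at -1.61 and -1.90 in members and near 0 in other kept cells.

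Other large differences between KO and WT members came from a few cells. Gzmd had 4 UMIs in KO and 1516 in WT members, of which 3 WT cells held 96.8%. Gzme, Gzmf and Gzmg, granzymes encoded next to it, had 95.2%, 97.6% and 96.3% of their WT member UMIs in 3 cells. Areg, the growth factor amphiregulin, had 50 UMIs in KO and 1 in WT members, with 92.0% of the KO UMIs in 3 cells. In all, the 3 top cells held over 50% of the UMIs of the higher library for 6 of the 62 higher and 14 of the 41 lower genes, which were therefore left out of the ranking.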

How the data were processed

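Single cell 3′ libraries of sorted tumor NK cells, 1 KO and 1 WT, were analysed from the deposited raw UMI counts, whole numbers per gene and barcode. The submitters' processing notes name Seurat, Cell Ranger 2.0.2 and mm10, with no role for any of them. How cells were called, which annotation was used and whether doublets were removed is not given in the sources used here. No doublet caller was run and all kept cells stayed in. The members and gene lists were chosen with earlier results of these data known. Counts were summed over the cells of each set and library and scaled to CPM. Log2 ratios used a pseudocount of 10 CPM and genes with at least 50 UMIs; Cd3d and Cd3e were left out of counts of called genes against other kept cells. A gene was called at 2-fold, against other kept cells in both libraries. Intervals are 95%, exact Clopper-Pearson for shares and exact conditional binomial for ratios without the pseudocount, and cover counting error only. A count of 0 was read as allowing up to 3 cells of the total. Named genes were the CD3, coreceptor and panel genes, the 15 highest and 15 lowest against other kept cells, the 12 highest and 12 lowest KO over WT, leaving out genes with over 50% of UMIs in 3 cells, and up to 4 per list; sex-linked markers, mitochondrial, ribosomal, hemoglobin and unnamed genes were left out of the rankings. The 6 genes and the limit behind the 11-cell group, Klra6, Lck, B2m, the few-cell granzymes and Areg were named after their values were seen. Alternatives covered the member choice, filters, minimum counts, pseudocount, scaling and subsets. The ratio and interval code was tested on simulated data. Python 3.11.15, numpy 2.4.6, scipy 1.17.1, pandas 2.3.3 and matplotlib 3.10.9 were used. Promoter windows came from RefSeq (GRCm38.p6) and gene positions from GENCODE M21.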

Additional observations from a re-analysis of the deposited data

Results flagged for a closer look

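The metallothionein gene Mt1 had KO over WT ratios of opposite sign in members and in the other kept cells. It was at 551 CPM in KO and 353 CPM in WT members, a log2 ratio of 0.63, and at 21.9 CPM in KO and 89.1 CPM in WT other kept cells, a log2 ratio of -1.63, so the ratios differed by 2.26. The 11 cells with at least 10 UMIs of Stard10, Insl5, Rhox5, Dntt, Endou and Slc6a13 held 96.0% of the Mt1 UMIs of KO members and 82.2% of those of WT members. In WT members they held 403 of 490 Mt1 UMIs. Without the 11 cells Mt1 was at 24.4 CPM in KO members and lower there than in WT members, as in the other kept cells. The opposite sign was thus seen only with the 11 cells included. With 1 library per genotype the difference was not tested.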

How the results depend on the processing

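The shares and counts of called genes depended on the limits. With 1 UMI required in place of 2, members were 7.56% of KO and 13.2% of WT cells, T support was in 29.3% of KO and 24.0% of WT members, and 15 genes were higher and 2 lower than in other cells. With 3 UMIs, members were 4.22% of WT cells and 46 genes were lower. With 1 UMI of each gene, members were 1.34% of KO and 2.45% of WT cells, T support was in 68.3% of KO and 62.1% of WT members, and 57 genes were lower. At 2500 UMIs, members were 2.30% of KO and 3.61% of WT cells, NK support was in 100% of KO members, and 42 genes were lower. The KO share was below the WT share under each of these.
A minimum of 20 UMIs gave 76 genes lower in KO than WT members. A minimum of 100 gave 20 genes higher in members than in other cells, and 41 higher and 26 lower in KO members. A pseudocount of 1 CPM gave 41 genes lower in members, and 98 higher and 79 lower in KO members. A pseudocount of 50 CPM gave 10 higher and 11 lower in members, 26 higher and 18 lower in KO members, and 1 list in place of 2 with a median past 1.5-fold. Members with T support gave 47 genes lower in members and 26 lower in KO members. Leaving out members with S and G2M genes gave 17 genes higher in members, and 39 higher and 25 lower in KO members; Cox6a2 became -0.19 and Dntt -0.078 against other cells. The median log2 ratio ranged from 0.49 to 0.95 for the NF-kB list and from 0.63 to 0.88 for the immediate early list.
Without the 11 cells, an alternative chosen after seeing the data, 21 genes were higher in members, and the ratio against other cells became -0.023 for Dntt, -0.00032 for Endou, -0.14 for Insl5, -0.11 for Mt1, -0.13 for Mt2, -0.19 for Rhox5 and -0.028 for Stard10. The ratio of Klra4 in KO over WT became 0.016 with 1 UMI required. The causes of these shifts were not tested. The alternative with T support and no NK support had no cells and gave no value. No paired analysis was possible because each genotype had 1 library. Depth limits single genes: 94 KO members held 543046 UMIs and 193 WT members 1389333.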
